A study of Mus musculus with 8 samples.

Results

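The genes described here encode 8 structural proteins of the myelin sheath, Mbp, Mobp, Mag, Mog, Cnp, Cldn11, Mal and Pmp22. Their members were taken as every probe set of the array annotated to exactly 1 of these genes, which gave 20 of the 22626 probe sets tested, 8 for Mbp, 3 each for Mobp and Cnp, 2 for Mal and 1 each for the others. A probe set is a group of short probes that reports 1 transcript or a few transcripts of a gene, and each was kept apart. RNA came from the hippocampus of male SCID mice aged 12 weeks, a strain without mature B and T lymphocytes, so controls and treated mice share this immune deficiency. The treated group was 4 mice given FTY720 (fingolimod, a sphingosine analogue) by mouth in saline at 1 mg/kg on 3 days, and the control group was 4 mice given saline by mouth on 3 days. All were trained in contextual fear conditioning, and the hippocampus was collected 17 hours from the final dose and 1 hour from the consolidation test. RNA of every animal was hybridised to its own Affymetrix array, giving FTY720 1, 4, 5 and 6 and vehicle 13 to 16, named by the replicate numbers of the labels.

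Myelin is the multilayered membrane that oligodendrocytes wrap around axons in the brain, and in the hippocampus it lies mainly in the fibre tracts and along some axons within the cell layers. Its layers are pressed together on the cytoplasmic side by basic proteins, sealed by a tight junction, and marked on their outer and axon-facing surfaces by adhesion proteins of the immunoglobulin family. Oligodendrocytes carry receptors for sphingosine-1-phosphate, the lipid that phosphorylated FTY720 mimics.

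Across the arrays, medians lay between 6.68 and 6.72 on the log2 scale and the median correlation of an array with the others was lowest for vehicle 15, at 0.994. Of 8 hippocampal neuron markers 7 were measured, and 6 of these stood above the median gene level, the exception being Prox1. Markers of neighbouring regions were uneven. The mean of the thalamus and habenula list, relative to the mean of all 8 mice, was 1.16 in vehicle 15, and that of the striatum list was 1.38 there. The other mice stood at no more than 0.20 and 0.31 for these lists.

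The myelin probe sets had lower values in FTY720 mice with few exceptions, and the shift was small. The log2 difference, FTY720 minus vehicle, was below 0 in 18 of 20 probe sets, where 45.6% of all probe sets tested were below 0. Mog, Cldn11 and Mal had the most negative differences, at -0.54, -0.48 and -0.35 for the brightest probe set of each. The median of the 20 was -0.27, against 0.01 for all probe sets. In bulk tissue, fewer oligodendrocytes and less RNA per oligodendrocyte cannot be told apart. Region markers and RNA integrity were also uneven between mice, as described below.

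With limma and adjustment over all 22626 probe sets, 0 were called at an adjusted p under 0.05 (0%), and 1529 had an unadjusted p under 0.05. The adjusted p of the 20 myelin probe sets lay between 0.593 and 0.846, so no single member is shown to differ. Unadjusted, 15 of the 20 had a p under 0.05 with a lower value in FTY720 mice, where 2.73% of all probe sets did, and 0 with a higher value (4.03% of all). In 9 of the 20 all FTY720 mice lay below all vehicle mice, against 1.74% of all probe sets, and in 0 did they lie above (2.65%). A difference of -0.25 or below was found in 13 of the 20 and in 1.58% of all. Probe sets of 1 gene share their source, and the members vary together from mouse to mouse, so these counts are not 20 separate observations.

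**Figure D1:**
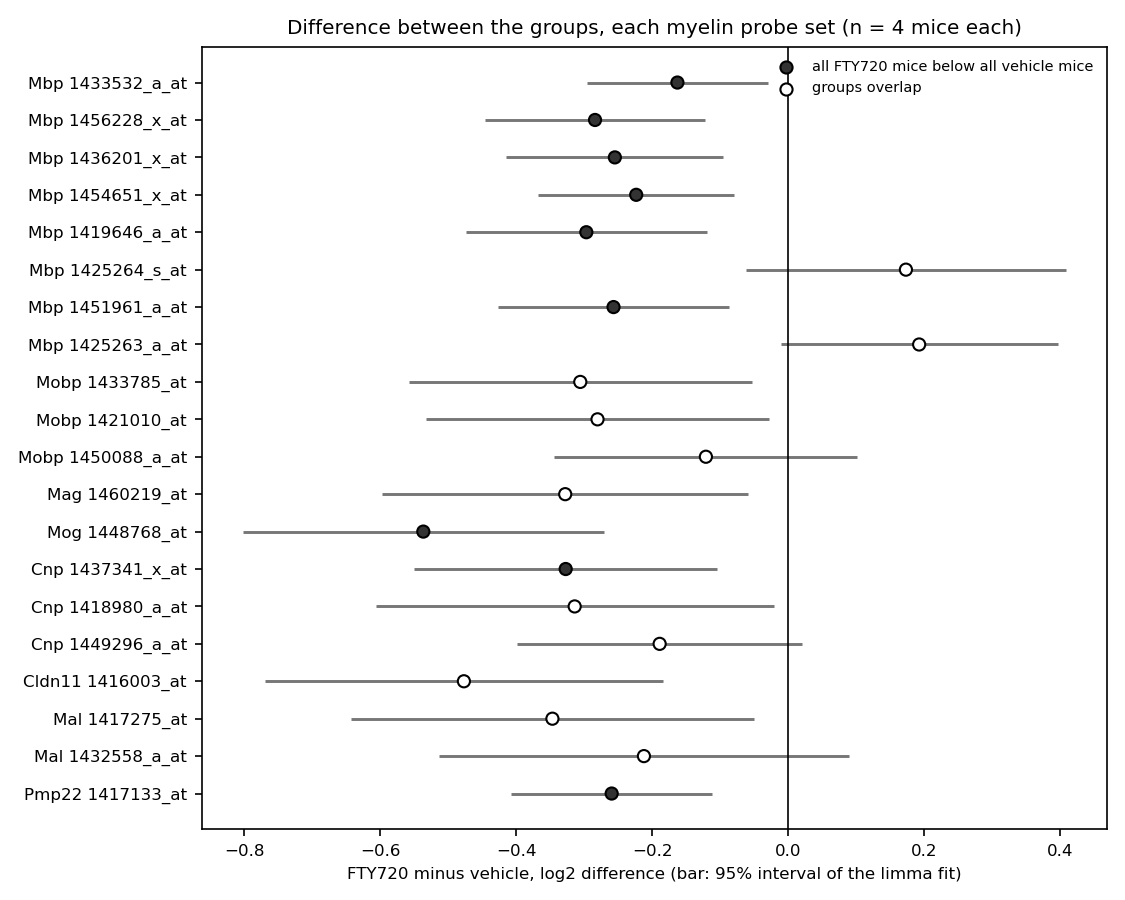
FTY720 minus vehicle difference on the log2 scale (horizontal axis) for each of the 20 myelin probe sets (rows), with the 95% interval of the limma fit, which is not adjusted for the number of probe sets. Filled points mark the 9 probe sets whose FTY720 and vehicle mice do not overlap, and the 2 points right of 0 are both Mbp probe sets.

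Myelin basic protein, Mbp, binds the cytoplasmic faces of the membrane and presses them together, and was covered by 8 probe sets. In its brightest, 1433532_a_at, FTY720 1, 4, 5 and 6 had log2 values of 13.49, 13.55, 13.58 and 13.56, against 13.60, 13.67, 13.72 and 13.84 in vehicle 13 to 16. The groups did not overlap, but FTY720 5 and vehicle 13 were nearly level. The difference was -0.16 (SE 0.06, limma adjusted p = 0.699), or 10.7% lower. The highest value of any probe set on an array lay between 14.24 and 14.47, so this probe set read near the top of the scale.

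Probe set 1419646_a_at had the most negative difference of the gene. Its FTY720 mice had 12.63, 12.67, 12.74 and 12.58, against 12.77, 13.05, 12.87 and 13.11 in vehicle mice. All FTY720 values were below all vehicle values, and vehicle 14 and 16 stood above vehicle 13 and 15. The difference was -0.30 (SE 0.08, limma adjusted p = 0.593), or 18.6% lower. In 1456228_x_at, 1436201_x_at, 1454651_x_at and 1451961_a_at the groups did not overlap either, with differences of -0.28, -0.26, -0.22 and -0.26.

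The remaining pair of Mbp probe sets lay on the other side of 0. In 1425263_a_at the values were 7.55, 7.62, 7.54 and 7.42 in FTY720 mice, against 7.46, 7.44, 7.06 and 7.41 in vehicle mice, and FTY720 minus vehicle was 0.19 (SE 0.09, limma adjusted p = 0.735). In 1425264_s_at they were 9.35, 9.31, 9.42 and 9.37 in FTY720 mice, against 9.29, 9.28, 8.83 and 9.35 in vehicle mice, and FTY720 minus vehicle was 0.17 (SE 0.11, limma adjusted p = 0.789). In both, vehicle 15 was far below the other mice and the groups otherwise lay close. Without vehicle 15 the differences were 0.10 and 0.05. With the thalamus and habenula list mean as a covariate, that of 1425264_s_at was -0.01. With the Gapdh 5′ minus 3′ control difference in the fit, they were 0.26 for 1425263_a_at and 0.32 for 1425264_s_at, the second at an unadjusted p under 0.05 (limma adjusted p = 0.975). Vehicle 15 also had the lowest mean of the neuron marker list, -0.16, where the other 7 mice lay between -0.01 and 0.06. This was not particular to neurons. The same mouse was lowest for astrocyte, microglia and meningeal markers, at -0.08, -0.16 and -0.24. The part of region or cell mixture in these values was not tested. The Mbp locus is known to make, besides the classic myelin transcripts, longer golli transcripts that neurons also express. The sources used here do not say which transcripts each probe set reports.

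These probe sets also varied apart from the others of the gene. With group means removed, the Pearson r over 8 mice between 1425263_a_at or 1425264_s_at and each of the other 6 lay between -0.19 and 0.46, with a median of 0.25 over 12 pairs. Among the other 6 it lay between 0.41 and 0.98, with a median of 0.90 over 15 pairs. The r between 1425263_a_at and 1425264_s_at themselves was 0.84, and -0.52 without vehicle 15, so their likeness rests on that mouse. These values describe 8 arrays and share their normalization.

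**Figure D2:**
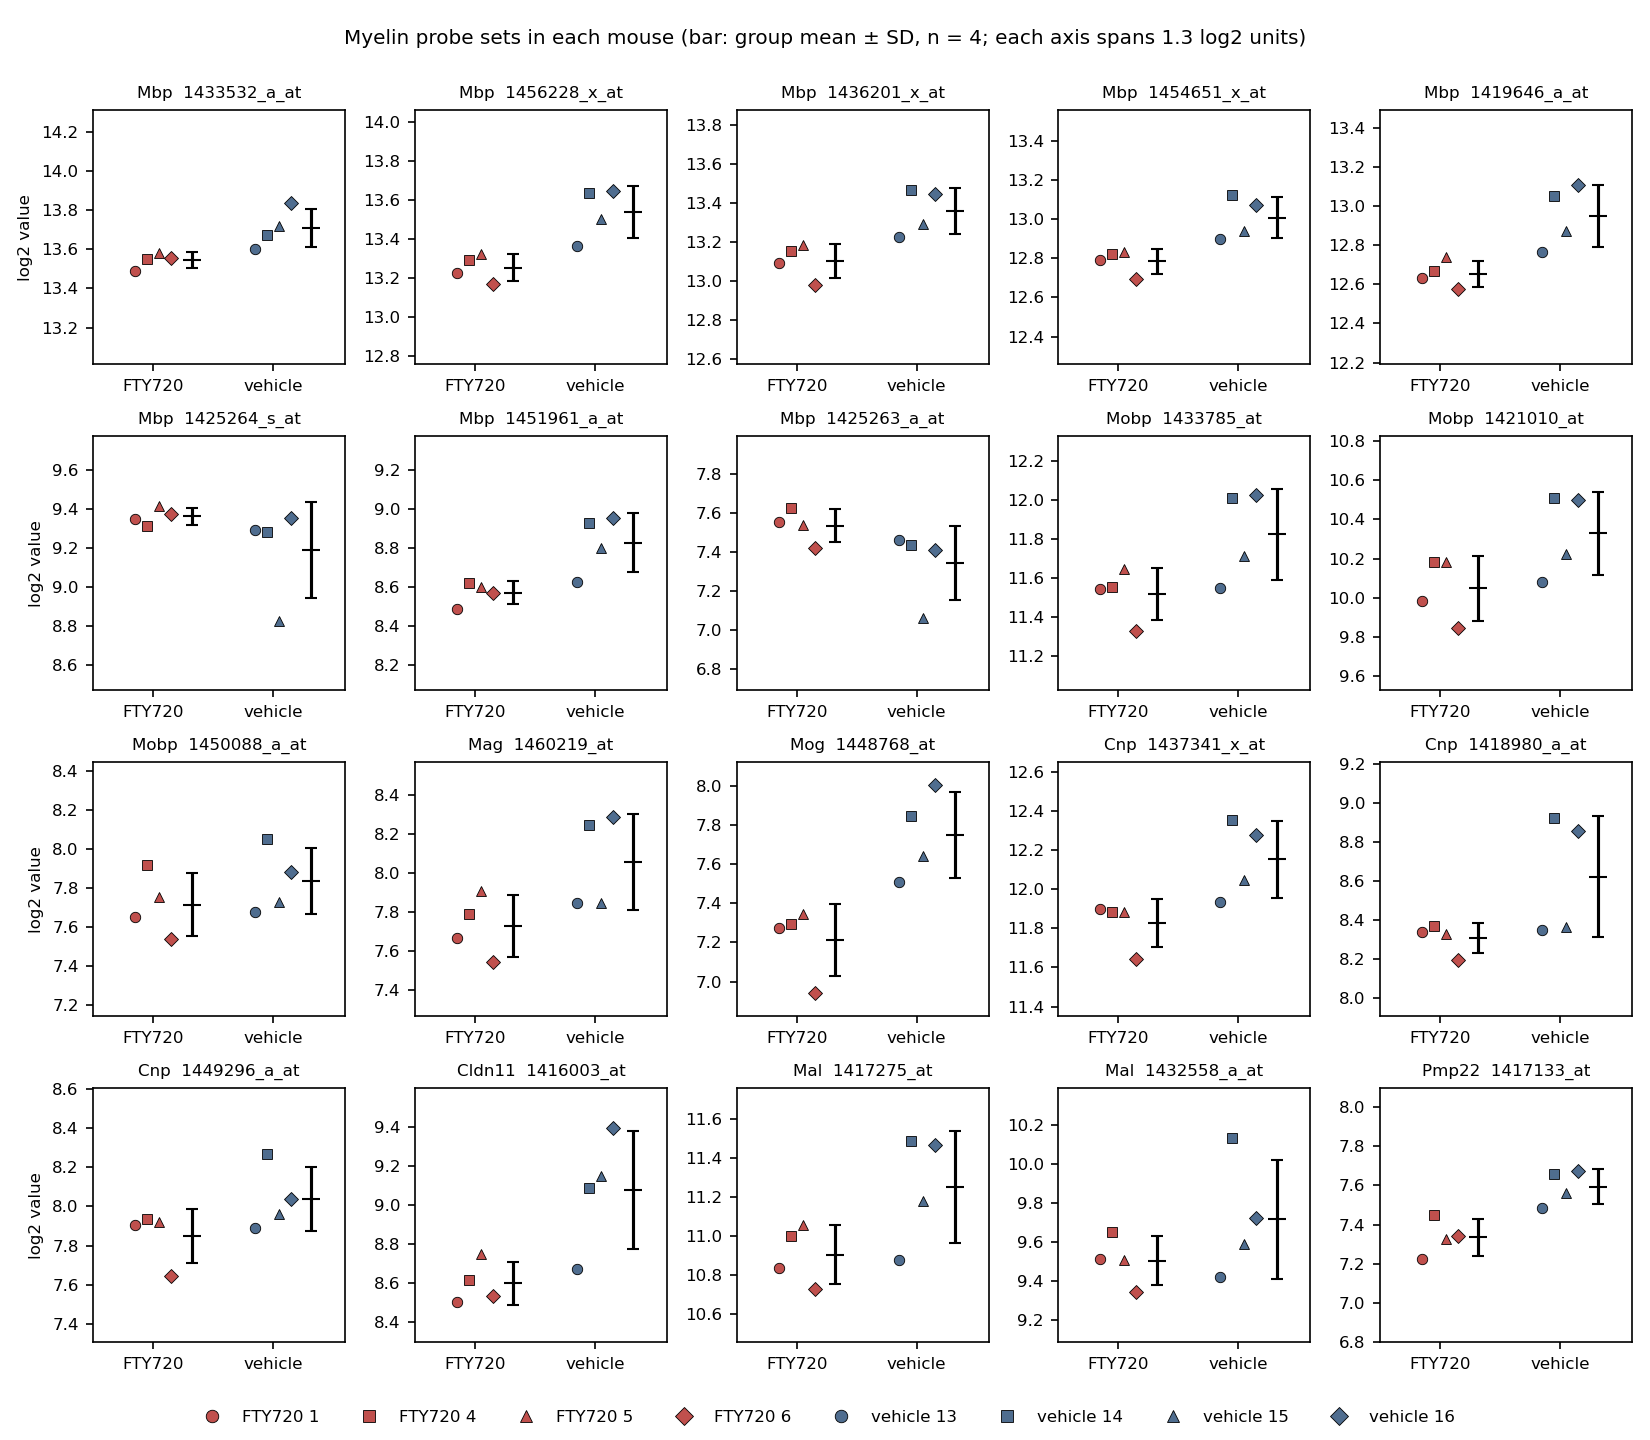
Log2 value (vertical axis, the same span in every panel) of every myelin probe set in each FTY720 mouse (left, red) and vehicle mouse (right, blue), with the group mean and SD (n = 4 each). FTY720 6 is lowest in 14 of the 20 panels, and vehicle 14 or vehicle 16 is highest in 18. In Mbp 1425264_s_at and 1425263_a_at vehicle 15 is lowest.

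Mobp, the myelin-associated oligodendrocyte basic protein, lies like Mbp in compact myelin of the central nervous system. Its brightest probe set, 1433785_at, read 11.54, 11.55, 11.65 and 11.33 in FTY720 mice, against 11.55, 12.01, 11.71 and 12.02 in vehicle mice. Vehicle 14 and 16 were high, vehicle 13 was within the FTY720 range, and the groups overlapped. The difference was -0.31 (SE 0.11, limma adjusted p = 0.699). Probe set 1421010_at gave -0.28 (SE 0.11) and 1450088_a_at gave -0.12 (SE 0.10, limma unadjusted p = 0.254). In the last, FTY720 4 stood at 7.92, above vehicle 13, 15 and 16 at 7.68, 7.73 and 7.89, and without vehicle 14 the difference was -0.05.

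Mag and Mog are adhesion proteins of the immunoglobulin family. Mag, the myelin-associated glycoprotein, faces the axon and binds sialic acid on it. Its probe set 1460219_at read 7.67, 7.79, 7.91 and 7.55 in FTY720 mice, against 7.85, 8.25, 7.85 and 8.29 in vehicle mice. FTY720 5 lay above vehicle 13 and 15, so the groups overlapped. The difference was -0.33 (SE 0.12, limma adjusted p = 0.699), or 20.3% lower.

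Mog, the myelin oligodendrocyte glycoprotein, sits on the outermost surface of the sheath and appears late in oligodendrocyte maturation. Probe set 1448768_at read 7.27, 7.29, 7.35 and 6.94 in FTY720 mice, against 7.51, 7.85, 7.64 and 8.004 in vehicle mice. All FTY720 mice were below all vehicle mice, with FTY720 6 lowest and vehicle 16 highest. The difference of -0.54 (SE 0.12, 95% interval -0.80 to -0.27) was the most negative of the 20, or 31.1% lower. Its limma adjusted p was 0.593, and by unadjusted p it ranked 42 among all probe sets. Without FTY720 6 it was -0.45, and without vehicle 16 also -0.45.

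Cnp, a cyclic nucleotide phosphodiesterase that keeps cytoplasmic channels open within the sheath, was covered by 3 probe sets. In the brightest, 1437341_x_at, FTY720 mice read 11.90, 11.88, 11.88 and 11.65, against 11.93, 12.36, 12.05 and 12.28 in vehicle mice. The groups did not overlap, though vehicle 13 was close to FTY720 1. The difference was -0.33 (SE 0.10, limma adjusted p = 0.685). The other probe sets gave -0.31 (SE 0.13) for 1418980_a_at and -0.19 (SE 0.09) for 1449296_a_at. The difference of 1449296_a_at was -0.11 without vehicle 14 and -0.12 without FTY720 6. In 1418980_a_at the FTY720 mice spanned 8.20 to 8.37, vehicle 13 and 15 lay within that range at 8.35 and 8.36, and vehicle 14 and 16 stood at 8.92 and 8.86.

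Cldn11, Mal and Pmp22 each cross the membrane several times. Cldn11 encodes claudin-11, which forms the tight junction of central myelin, and is also made by other cells with such junctions. Probe set 1416003_at read 8.50, 8.61, 8.75 and 8.53 in FTY720 mice, against 8.67, 9.09, 9.15 and 9.39 in vehicle mice. FTY720 5 lay above vehicle 13 and below the other vehicle mice. The difference was -0.48 (SE 0.13, limma adjusted p = 0.608), or 28.2% lower. Without vehicle 13 it was -0.61 and had the smallest adjusted p of any member in any setting, 0.175, and without vehicle 16 it was -0.37. Without vehicle 15 and 16 it was -0.28.

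Mal, a proteolipid of lipid rafts that takes part in sorting proteins to the myelin membrane, had 2 probe sets. Probe set 1417275_at read 10.84, 10.999, 11.05 and 10.73 in FTY720 mice, against 10.88, 11.48, 11.18 and 11.47 in vehicle mice. Vehicle 13 was again among the FTY720 values, and the difference was -0.35 (SE 0.13, limma adjusted p = 0.699). Probe set 1432558_a_at gave -0.21 (SE 0.14, limma adjusted p = 0.794), with FTY720 mice between 9.34 and 9.65, vehicle 14 at 10.13 and the other vehicle mice between 9.42 and 9.73. Without vehicle 14 the difference of 1432558_a_at was -0.07.

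Pmp22, a main protein of compact peripheral myelin, is made by Schwann cells and at lower levels by other cells such as fibroblasts. Probe set 1417133_at read 7.22, 7.45, 7.32 and 7.34 in FTY720 mice, against 7.49, 7.66, 7.56 and 7.68 in vehicle mice. The groups did not overlap, and the SD among vehicle mice, 0.089, was the smallest of the 20 probe sets. The difference was -0.26 (SE 0.07, limma adjusted p = 0.593). Of 8 Schwann cell and peripheral myelin markers 3 were measured, Ncmap, Egr2 and Foxd3, none of them above the median gene level. Ncmap differed by -0.10 (SE 0.06). Foxd3 stood at 0.09 (SE 0.08). Egr2 is also an activity-induced gene of neurons and stood at -0.69 (SE 0.51). Its value was 8.39 in vehicle 16 and between 5.62 and 6.09 in all other mice, so its difference rests on vehicle 16.

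Probe sets of 1 gene could be compared directly within each mouse. For the 12 further probe sets of Mbp, Mobp, Cnp and Mal, the difference between the groups was set against that of the brightest probe set of the gene, in a limma fit over 7987 such pairs of the array. No pair of the array passed an adjusted p of 0.05 (0%), and 6.79% had an unadjusted p under 0.05. Of the 12, 3 were under 0.05 unadjusted. Mbp 1425263_a_at and 1425264_s_at stood 0.36 (SE 0.11, limma adjusted p = 0.720) and 0.34 (SE 0.11, adjusted p = 0.720) above 1433532_a_at. Mobp 1450088_a_at stood 0.18 above 1433785_at (SE 0.08, limma adjusted p = 0.729). Without vehicle 15 the Mbp values were 0.26 and 0.21. The other 5 Mbp probe sets stood between -0.13 and -0.06 relative to the brightest.

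As the members had values that moved together, their promoters are shown. RefSeq windows of GRCm38.p6, from 250 bases before to 50 bases after the start of transcription, were found for 7 of the 8 genes, and Mbp had none. These gave 12 windows, since Mag and Pmp22 have several. Searched on both strands were ACAAAG, the core letters bound by SOX factors such as Sox10, CTGGCAC and CTGGTAC, which are forms of the motif of Myrf, the factor that drives myelin genes, and TATAAA. Overlapping motifs were counted apart. ACAAAG was in 4 of 12 windows (Mobp, Cnp and an overlapping pair for Mag), where 18.7% of 32851 windows of the same length held it. CTGGCAC was in 3 of 12, those of Cnp and the same pair for Mag (5.01% of all windows), CTGGTAC in 1, that of Mog (2.24%), and TATAAA in none (13.6%). The windows of Mobp (chr9:120149492-120149791, plus strand), Mog (chr17:37023349-37023648, minus strand) and Cnp (chr11:100574689-100574988, plus strand) follow 5′ to 3′ along the gene, as examples of windows that hold different motifs, with matches in capitals.
Mobp: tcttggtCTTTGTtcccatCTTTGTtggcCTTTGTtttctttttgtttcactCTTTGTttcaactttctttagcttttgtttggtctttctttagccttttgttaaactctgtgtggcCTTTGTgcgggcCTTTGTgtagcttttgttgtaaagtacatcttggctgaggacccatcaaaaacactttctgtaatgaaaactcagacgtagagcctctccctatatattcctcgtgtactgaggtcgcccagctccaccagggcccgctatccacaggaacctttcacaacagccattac
Mog: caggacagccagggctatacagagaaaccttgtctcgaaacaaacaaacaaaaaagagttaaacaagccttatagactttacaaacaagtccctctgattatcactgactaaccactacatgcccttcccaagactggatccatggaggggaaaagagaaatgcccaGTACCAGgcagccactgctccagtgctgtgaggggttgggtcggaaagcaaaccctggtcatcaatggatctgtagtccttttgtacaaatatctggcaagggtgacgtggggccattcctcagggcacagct
Cnp: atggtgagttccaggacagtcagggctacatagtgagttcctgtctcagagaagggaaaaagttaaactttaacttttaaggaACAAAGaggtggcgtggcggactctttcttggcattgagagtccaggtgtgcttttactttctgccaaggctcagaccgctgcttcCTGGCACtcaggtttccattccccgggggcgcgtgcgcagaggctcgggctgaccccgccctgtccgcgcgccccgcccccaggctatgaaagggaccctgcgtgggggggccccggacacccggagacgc
The Mobp window held ACAAAG 6 times, each on the strand opposite to the gene, so that it reads CTTTGT, with first bases between -243 and -120 from the start. The Mog window held CTGGTAC on the opposite strand at -83. The Cnp window held ACAAAG at -167 and CTGGCAC at -81. Such matches are letters in a window and not shown binding sites. The Myrf gene, named after its values were seen, differed by -0.10 (SE 0.05, limma adjusted p = 0.790).

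The 8 members varied together between mice, treatment apart. With group means removed, the Pearson r over 8 mice between the brightest probe sets of each pair of members lay between 0.37, for Mbp with Cnp, and 0.97, for Mobp with Cnp, with a median of 0.74 over 28 pairs. Without vehicle 16 the median was 0.63. Mbp then had an r of 0.15 with Cnp, 0.21 with Mog, 0.26 with Mag and 0.32 with Mobp. With Mal, Pmp22 and Cldn11 it was 0.54, 0.57 and 0.89. The mean of the 8 members per mouse, each centred on its mean over all mice, was -0.20, -0.11, -0.07 and -0.30 in FTY720 1, 4, 5 and 6, against -0.07, 0.29, 0.10 and 0.37 in vehicle 13 to 16. Vehicle 14 and 16 were high and FTY720 6 low. Vehicle 13, at -0.0715, was just below FTY720 5, at -0.0684, so the groups overlapped. In 15 of the 20 probe sets vehicle 14 and 16 were the 2 highest mice, and in 18 vehicle 13 was the lowest vehicle mouse. The SD was larger among vehicle than among FTY720 mice in 19 of 20.

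Of the 6188 other genes above the median level, the 10 whose pattern was most like the mean of the members, by r over 8 mice with group means removed, were Micos10 (0.98), Bud31 (0.97), Aspa (0.97), Bri3, Sh3glb1, Rnf130, Olig1, Slc15a4, Evi2a and Cryab (0.95). Aspa, which cleaves N-acetylaspartate in oligodendrocytes, Olig1, a transcription factor of the lineage, Evi2a and the small heat shock protein gene Cryab belong to oligodendrocyte lists used here. Their FTY720 minus vehicle differences were -0.44 (SE 0.10) for Aspa, -0.08 (SE 0.07) for Olig1, -0.45 (SE 0.11) for Evi2a and -0.30 (SE 0.13) for Cryab. Micos10, a subunit of the mitochondrial cristae complex, and Bud31, a splicing factor, differed by -0.04 (SE 0.05) and 0.01 (SE 0.04). A pattern like that of the members thus went with differences near 0 as well. Without removing group means, r was 0.86 for Micos10 and 0.48 for Bud31. Both were picked as the highest of 6188 values of r over 8 mice. Of the 10 genes, 4 were also among the closest 10 without removing group means, where Aspa led with r = 0.99, and 3 without vehicle 16.

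Other oligodendrocyte genes, 1 probe set a gene, were lower to differing degrees, and of 12393 genes fitted with limma 0 had an adjusted p under 0.05 (0%) and 823 an unadjusted p under 0.05. Of these genes 46.5% had a difference below 0, 2.78% were at an unadjusted p under 0.05 with lower values and 3.86% with higher values. All 8 members were below 0 and at an unadjusted p under 0.05 here, with a median of -0.33 against 0.01 for all genes. In 4 of the 8, Mog, Pmp22, Cnp and Mbp, all FTY720 mice lay below all vehicle mice, against 1.78% of genes, and in 0 above (2.72%). Genes of the myelin lipid list were below 0 in 12 of 13, with 8 lower and none higher at an unadjusted p under 0.05 and a median of -0.23. The list is mainly of enzymes and carriers of lipids. It also holds Pllp, a membrane proteolipid, named after its values were seen and 1 of the 8 (-0.25, SE 0.07). The list was led by Ugt8a, which makes galactosylceramide (-0.52, SE 0.10), Aspa and Gal3st1, which makes sulfatide (-0.23, SE 0.06). Other mature oligodendrocyte genes were below 0 in 22 of 25, with 11 lower and none higher at an unadjusted p under 0.05 and a median of -0.22. Their smallest p values were those of Ppp1r14a (-0.45, SE 0.11), Evi2a and Septin4 (-0.37, SE 0.09).

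Not every myelin gene had such values. Other structural and adhesion proteins of myelin were below 0 in 6 of 9, with 2 at an unadjusted p under 0.05, none higher, and a median of -0.04. The tetraspanin genes Tspan2 and Cd9 stood at -0.28 (SE 0.10) and -0.24 (SE 0.09), and the connexin gene Gjb1 at -0.21 (SE 0.10). Named after their values were seen, Omg, Gpm6b, Jam3 and Cntn2, of which Omg, Gpm6b and Cntn2 are also made by neurons, lay between -0.04 and 0.04. Lineage factors were below 0 in 7 of 7 with a median of -0.11, 3 of them at an unadjusted p under 0.05, Nkx6-2 (-0.24, SE 0.08), Tcf7l2 (-1.44, SE 0.51) and Sox10 (-0.15, SE 0.06). Tcf7l2 is also a thalamic marker. Precursor markers had a median of 0.03, with 3 of 9 below 0, and at an unadjusted p under 0.05 were Cacng4 (-0.30, SE 0.11) and Matn4 (0.15, SE 0.06), while Cspg5 stood at -0.16 (SE 0.10).

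Marker lists of other cell types, 1 probe set a gene, had medians between -0.06 and 0.03 with all mice. Astrocyte markers had a median of -0.03 (8 of 12 below 0), with Aqp4 at -0.23 (SE 0.07), Fgfr3 at 0.14 (SE 0.06) and Gjb6 at 0.19 (SE 0.08). Microglia markers had a median of -0.00 (6 of 11 below 0), with Aif1, Tyrobp and C1qb at -0.17, -0.16 and -0.10. Microglia list means were -0.06 to 0.04 in FTY720 mice, against -0.16 to 0.12 in vehicle mice, with vehicle 14 and 16 highest, as for the myelin members. Its part in the myelin values was not tested. Neuron markers had a median of 0.03 (4 of 10 below 0), with Syt1, Syn1 and Camk2a at 0.12, 0.17 and 0.15. Without vehicle 15 and 16 the neuron median was -0.03, the precursor median -0.02 and the meningeal median -0.10, each on the other side of 0, while the endothelial median was -0.13 and the microglia median -0.07, both further below 0. Endothelial markers had a median of -0.06 (8 of 11 below 0), with Abcb1a at 0.15, Cldn5 at -0.21 and Tek at -0.21. Meningeal and fibroblast markers had a median of 0.01 (6 of 12 below 0), with Dcn at 0.90 (SE 0.19), Col1a1 at 0.09 and Col3a1 at -0.16.

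Lists of neighbouring tissue also had medians below 0. Thalamus and habenula markers were below 0 in 15 of 16, with a median of -0.48 and list means of -0.36 to -0.20 in FTY720 mice and -0.36 to 1.16 in vehicle mice. Of the 16, 6 were lower and 0 higher at an unadjusted limma p under 0.05 (2.78% and 3.86% of all genes). In 3 of the 16 all FTY720 mice lay below all vehicle mice (1.78% of all genes). Rora (-0.43, SE 0.11), Ramp3 (-0.74, SE 0.24) and Tcf7l2 had the smallest p. Striatum markers were below 0 in 9 of 9, with a median of -0.42 and list means of -0.34 to -0.22 in FTY720 mice and -0.33 to 1.38 in vehicle mice, Rasd2 standing at -0.41, Penk at -1.14 and Rarb at -0.70. Choroid plexus markers were below 0 in 9 of 9, with a median of -0.45 and list means of -1.24 to 0.86 in FTY720 mice and -0.87 to 1.35 in vehicle mice, Folr1, Ttr and Otx2 standing at -0.78, -0.69 and -0.66. The striatum and choroid plexus lists each had 0 genes at an unadjusted limma p under 0.05. Vehicle 15 was highest in all 3 lists. FTY720 6, the lowest mouse for the myelin members, was also lowest for choroid plexus and the lowest FTY720 mouse for thalamus. This was not particular to neighbouring tissue. FTY720 6 was also lowest of the 8 mice for endothelial (-0.11) and oligodendrocyte precursor (-0.10) markers. It was the lowest FTY720 mouse for astrocyte, microglia and meningeal markers. The myelin members were highest in vehicle 16, whose thalamus mean was the lowest of the 8 mice, -0.36. Without vehicle 15 and 16 the thalamus median was -0.32, the striatum median 0.04 and that of the 8 myelin members -0.28. With the thalamus and habenula list mean as a covariate, the median difference of the 20 myelin probe sets was -0.295, and 15 of 20 stayed lower at an unadjusted p under 0.05. In that fit 3.97% of all probe sets were lower at this threshold, against 2.73% without the covariate. The thalamus list mean is itself uneven between the groups, so its part and that of the drug cannot be told apart here. No fit used the striatum or choroid plexus list mean.

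**Figure D3:**
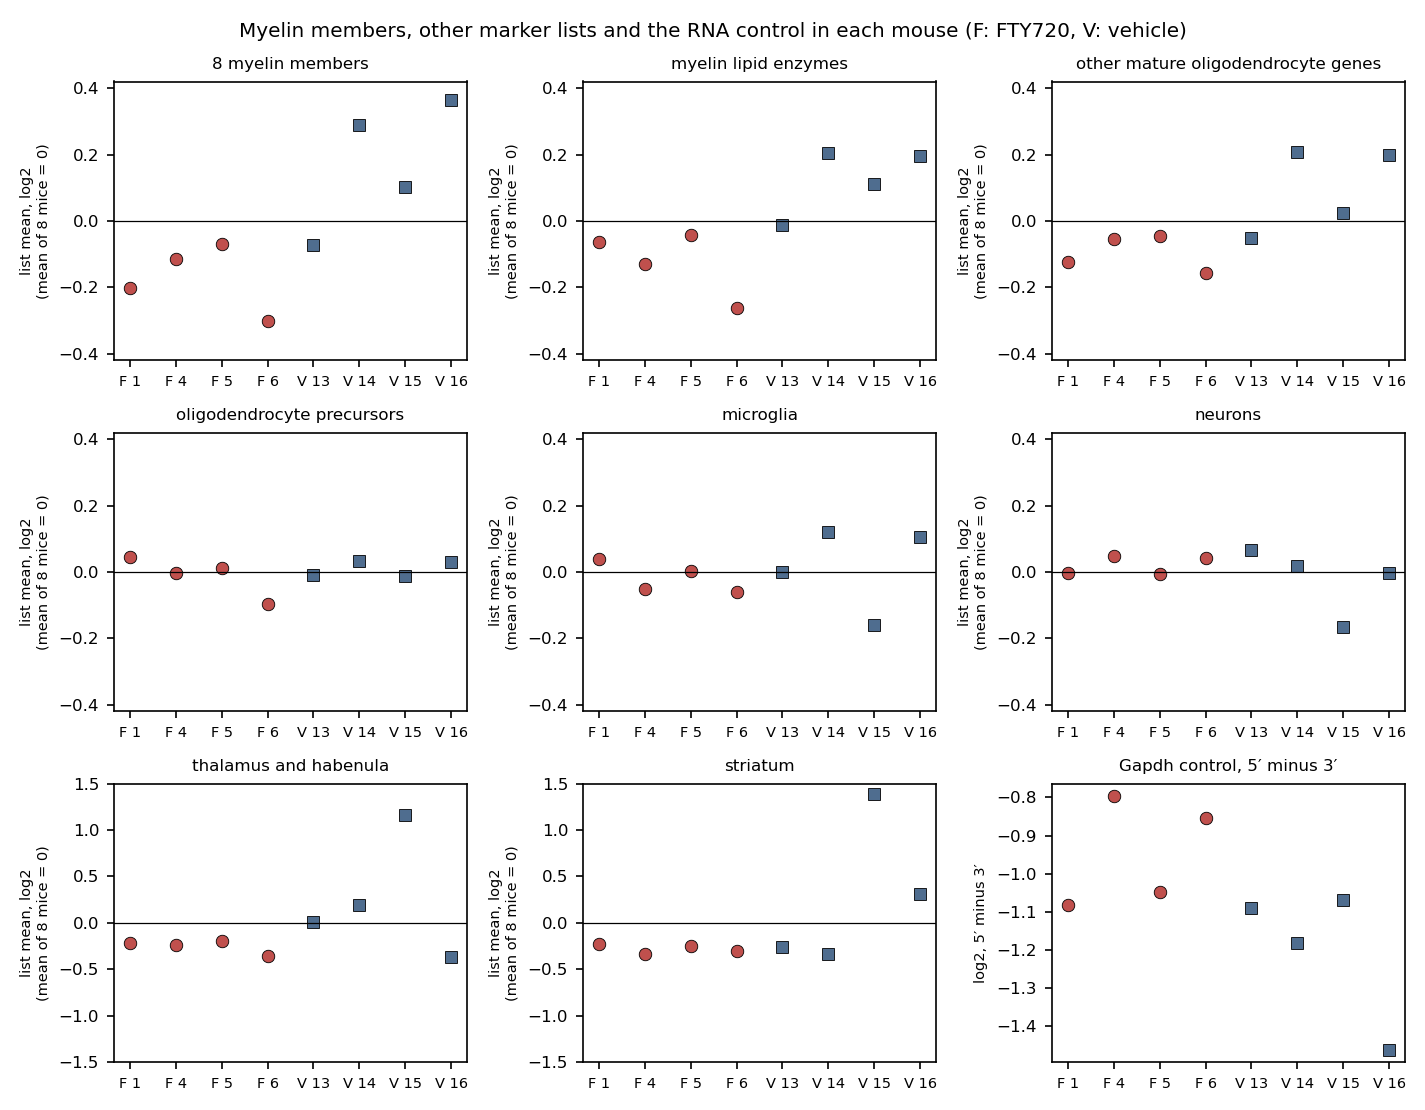
Mean log2 value per mouse of the 8 myelin members and of 7 marker lists, each gene centred on its mean over the 8 mice, and the Gapdh control difference (last panel), for FTY720 mice (red circles) and vehicle mice (blue squares). Vehicle 14 and 16 are high for the myelin members, myelin lipid enzymes, other mature oligodendrocyte genes and microglia, while vehicle 15 stands apart for thalamus and striatum. The bottom row has wider vertical scales than the upper rows, and vehicle 16 has the lowest Gapdh difference.

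RNA integrity was uneven between the mice. The 5′ minus 3′ difference of the Gapdh control probe sets, which becomes more negative as RNA is broken or copied less fully, was -1.08, -0.80, -1.05 and -0.85 in FTY720 1, 4, 5 and 6, against -1.09, -1.18, -1.07 and -1.46 in vehicle 13 to 16. The means were -0.95 ± 0.14 and -1.20 ± 0.18 (SD, n = 4 each, two-sided exact permutation p = 0.0571). Vehicle 16 and 14, the mice with the highest myelin values, had the most negative differences, whereas FTY720 6, with the lowest myelin values, had one of the least negative. FTY720 4 had the least negative Gapdh difference, but its member mean of -0.11 was above that of FTY720 1, -0.20. With this difference as a covariate, the median of the 20 probe sets was -0.15 and 2 of them, Mog (-0.31, SE 0.13) and Pmp22 (-0.26, SE 0.09), stayed lower at an unadjusted p under 0.05, and Mbp 1425264_s_at was higher at that threshold. Pmp22 was -0.26 without the covariate too, whereas Mobp 1433785_at stood at -0.11 and Mag at -0.12. The covariate is itself uneven between the groups, so its part in the result and that of the drug cannot be told apart here. The actin control was also uneven. Its 5′ minus 3′ means were -2.34 ± 0.11 in FTY720 and -2.54 ± 0.14 in vehicle mice (SD, two-sided exact permutation p = 0.0571).

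**Figure D4:**
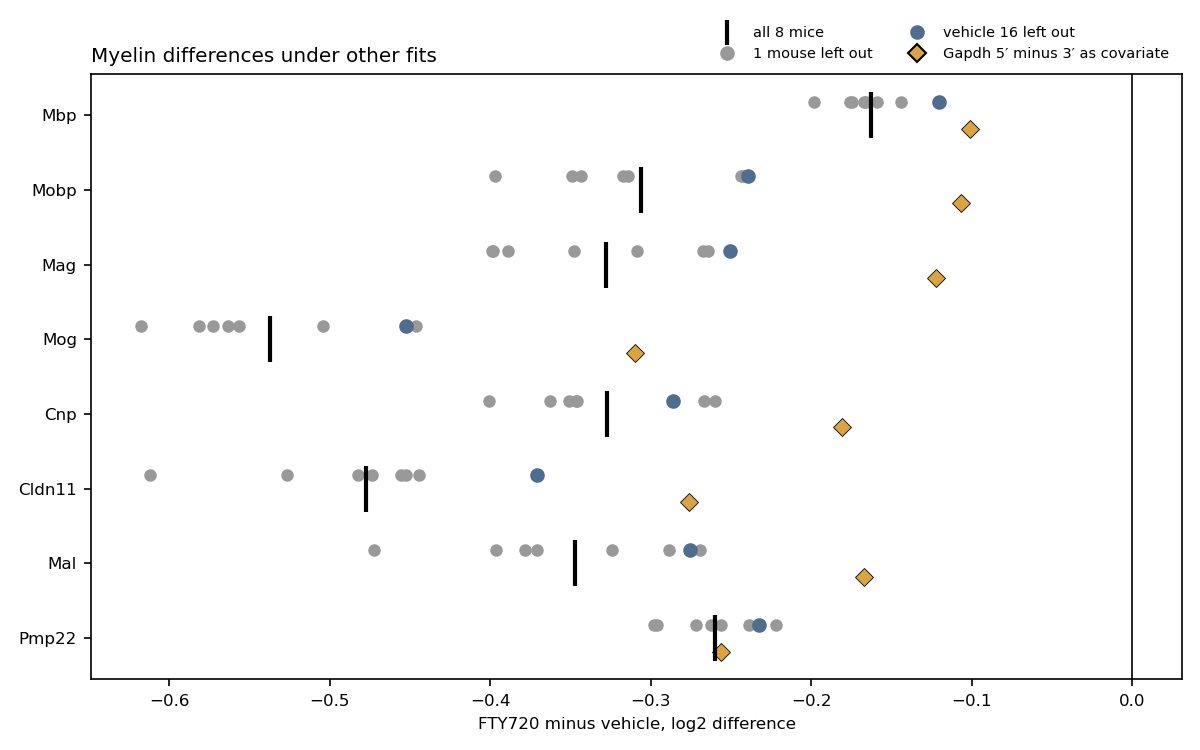
FTY720 minus vehicle log2 difference (horizontal axis) of the brightest probe set of each myelin gene (rows) with all 8 mice (black bar), with each mouse left out in turn (grey points, vehicle 16 in blue) and adjusted for the Gapdh control difference (yellow diamonds). All values stay below 0, and the covariate brings every gene but Pmp22 nearer to 0 than leaving out any 1 mouse does.

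The count of 15 of 20 at an unadjusted p under 0.05 depended on single mice. It was 9 without vehicle 16, 10 without vehicle 14, FTY720 1 or FTY720 6, and 17 without vehicle 13. In these fits, in the order given, 2.23%, 3.43%, 2.37%, 2.44% and 3.31% of all probe sets were lower at that threshold (2.73% with all mice). The median difference of the 20 lay between -0.33 and -0.22 over the fits with 1 mouse left out. Without vehicle 15 and 16 together it was -0.25, with 9 of 20 at an unadjusted p under 0.05, where 2.49% of all probe sets were lower at that threshold.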

How the data were processed

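Hippocampal RNA of 8 mice was measured on 1 Affymetrix 3′ array each, with 100 ng RNA labelled for each, per the labels. The values the authors deposited are on the log2 scale, as their range shows. Per the submitters' processing notes, Affymetrix Expression Console, MAS5 and RMA were involved, and which of them gave these values is not stated. Of 22690 probe sets, 64 controls were left out. Of the 22626 tested, 20380 had 1 gene symbol in the platform annotation, 691 several and 1555 none. The 22626 were fitted with limma 3.58.1 in R 4.3.3 (lmFit, eBayes, FTY720 minus vehicle, no covariate), with Benjamini-Hochberg adjustment over all. No value was removed for low signal and no further normalization was done. The number of mice limits the precision, with a median SE of 0.07.

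Gene lists used, for each gene, the probe set of highest mean among those annotated to it alone (12393 genes). Within-gene pairs were fitted with limma on the difference of 2 probe sets per array. Genes named are all members and the 3 of smallest unadjusted p in each list, with others said to be chosen after seeing values. Likeness was ranked by r as described. The members and lists were chosen with earlier results of these data known. The fit was tested on simulated data. Alternatives covered normalization, filters, probe set choice, variance models, covariates and mice left out.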

Additional observations from a re-analysis of the deposited data

Results flagged for a closer look

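In 4 of the 40 groups of 4 mice formed by the 20 myelin probe sets, 1 mouse lay apart from the rest by Dixon's test at its 95% level, where chance flags about 1 in 20 groups. Vehicle 15 was lowest among vehicle mice for Mbp 1425264_s_at, at 8.83 with the nearest at 9.28, and for Mbp 1425263_a_at, at 7.06 with the nearest at 7.41. FTY720 6 was lowest among FTY720 mice for Cnp 1437341_x_at, at 11.65 with the nearest at 11.88, and for Cnp 1449296_a_at, at 7.64 with the nearest at 7.90. Probe sets of 1 gene share these mice and are not separate observations.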

How the results depend on the processing

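Over 21 alternative fits, 390 of 391 values of the 20 myelin probe sets kept their direction and stayed above an adjusted p of 0.05. The exception was Mbp 1425264_s_at, -0.0092 with the thalamus and habenula list mean as covariate, against 0.17. No probe set of the array passed in any of these, and no within-gene pair with all mice or with 1 left out, the settings in which pairs were fitted. With the Gapdh control difference in the fit, 10% of the myelin probe sets were lower at an unadjusted p under 0.05 (75% without it) and 1.63% of all probe sets (2.73%). This share was 45% without vehicle 15 and 16, and 45% to 85% with 1 mouse left out. The share with groups not overlapping was 25% with probe sets of a gene averaged, where only 8 genes remain, and 45% to 70% with 1 mouse left out (45% with all). It was 35% with quantile normalization, and 33.3% without probe sets ending in _s_at or _x_at, where 15 of the members remain. The share over all probe sets was taken only in the main fit (1.74%), so these shares have none beside them. With fewer mice groups separate more easily, so the range with 1 mouse left out is not comparable with 45%. Within genes, Mobp 1421010_at minus its brightest probe set was 0.025 with all mice and -0.0083 to 0.056 with 1 left out, below 0 without FTY720 4. Cnp 1418980_a_at minus its brightest was 0.013 with all mice and -0.038 to 0.050 with 1 left out, below 0 without FTY720 6, vehicle 13 or vehicle 15. The causes were not tested. No paired analysis was possible because the replicate numbers of the groups differ. Scan dates and slides were not given, so no batch was tested.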
